A study of Mus musculus with 4 samples.

Results

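Conventional dendritic cells are the class II-bearing antigen-presenting cells of bone marrow and tissues, and 592 of the 31209 kept cells of this mouse bone marrow series met a rule for them. The members were chosen by measured values: at least 10 UMIs (unique molecular identifiers, 1 per captured RNA molecule) of the class II genes H2-Aa, H2-Ab1 and H2-Eb1 together, and at least 1 UMI of Flt3, the receptor for the cytokine that drives dendritic cell growth. B cells were left out by requiring 0 UMIs of Cd79a and Ebf1, plasmacytoid dendritic cells by fewer than 3 UMIs of Siglech, Cd209a-bearing cells by fewer than 2 UMIs of Cd209a, and neutrophils by Camp and Ngp under 0.5% of a cell's UMIs. Levels of these genes are therefore a description and are not tested, and so is every difference between the members and other cells.

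The members numbered 108 in the B12+Butyrate library, 123 in B12, 174 in Butyrate and 187 in Control. All 4 groups were lethally irradiated mice given equal parts of CD45.1+ Tet2+/+ and CD45.2+ Tet2+/- marrow, so every cell analysed here carried the Tet2+/- genotype and the Control mice were no exception. After 1 month of engraftment the mice received 7 months of treatment. The B12+Butyrate mice had intraperitoneal B12 at 0.29 µg per injection and 100 mM sodium butyrate in their water, the B12 mice had B12 with 100 mM NaCl water, the Butyrate mice had PBS injections with butyrate water, and the Control mice had PBS with NaCl water. Frozen marrow of 3 mice was pooled for each group, live CD45.2+ cells were sorted, and cKit+ and cKit- cells were mixed in equal parts, so shares below are shares of that mixture and not of marrow. Each group is 1 library: no test across animals was possible, intervals cover counting error only, and treatment, pool and library cannot be told apart.

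Conventional dendritic cells arise in the marrow from Flt3-bearing progenitors and leave it as precursors that mature in tissues. They fall into a cDC1 branch, which needs Irf8, Batf3 and Id2, carries Xcr1 and Clec9a and hands antigen to CD8 T cells, and a cDC2 branch, which uses Irf4 and Zeb2, carries Sirpa and favours CD4 T cells. After activation either kind can switch to a mature migratory state with Ccr7, the receptor that leads them to lymph nodes, and Fscn1, an actin-bundling protein. Peptides for CD4 T cells are loaded on class II proteins with the help of Cd74, the invariant chain, and of the H2-DM proteins, and the class II genes are switched on together by the coactivator Ciita.

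The upstream sequences of 3 class II genes are shown because the rule rests on this gene family and because Ciita, which is no rule gene, was among the 20 genes with the highest fold in the members over all other kept cells. Ciita acts through factors bound at short elements before these genes, among them the Y box. Each run is the 250 bases before the RefSeq gene start (GRCm38.p6; the count files use GRCm39, and genes were matched by symbol), with the Y-box core TGATTGG in capitals.
H2-Aa, chr17:34287824-34288073, minus strand: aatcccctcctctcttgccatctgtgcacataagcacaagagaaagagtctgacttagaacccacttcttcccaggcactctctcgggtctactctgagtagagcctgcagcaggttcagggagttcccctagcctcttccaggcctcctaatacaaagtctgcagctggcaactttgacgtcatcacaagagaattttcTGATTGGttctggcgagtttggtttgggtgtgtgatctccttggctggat
H2-Eb1, chr17:34305617-34305866, plus strand: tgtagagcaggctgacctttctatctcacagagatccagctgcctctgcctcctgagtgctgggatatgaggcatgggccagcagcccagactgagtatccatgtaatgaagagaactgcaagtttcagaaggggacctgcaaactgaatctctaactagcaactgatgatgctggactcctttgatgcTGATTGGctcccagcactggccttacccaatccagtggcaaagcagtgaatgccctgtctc
H2-DMb1, chr17:34152941-34153190, plus strand: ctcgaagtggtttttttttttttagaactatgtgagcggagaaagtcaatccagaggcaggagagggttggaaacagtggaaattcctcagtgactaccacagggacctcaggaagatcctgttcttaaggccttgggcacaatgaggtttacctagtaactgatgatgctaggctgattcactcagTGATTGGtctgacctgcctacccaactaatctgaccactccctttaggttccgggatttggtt
The motif was centred 47, 58 and 60 bases before the start of H2-Aa, H2-Eb1 and H2-DMb1. On either strand it was present for 8 of the 13 genes of the class II presentation list that matched a sequence, against 7.23% of all 32851 windows of that length; a match is a description and not a binding site.

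Depth was similar across the libraries. The members held 1746531 UMIs in B12+Butyrate, 1670987 in B12, 2653828 in Butyrate and 2733452 in Control, and the median member had 14900, 11953, 14365.5 and 13197 UMIs in the same order. Barcodes over the limit of 10% mitochondrial UMIs made up 5.34% of the B12+Butyrate library, 9.43% of B12, 13.9% of Butyrate and 8.89% of Control. No member barcode was shared between 2 libraries, and a simulation-based doublet score called 1, 4, 4 and 3 members in the B12+Butyrate, B12, Butyrate and Control libraries.

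At the edges of the rule, the 33 members with 10 to 14 class II UMIs had 28.7 CPM (a gene's UMIs scaled to the depth of the cells summed) of Zbtb46, a transcription factor of conventional dendritic cells, and 8893 CPM of Lyz2, the lysozyme of myeloid cells. The 63 cells just outside, with 5 to 9 class II UMIs, had 21.9 CPM of Zbtb46 and 7099 CPM of Lyz2. The 161 members with a single Flt3 UMI had 60.4 CPM of Zbtb46, against 29.2 CPM in the 432 cells that met every other condition but had no Flt3 UMI. The 50 members with 1 Cd209a UMI had 105 CPM of Zbtb46, against 47.4 CPM in the 34 cells excluded at 2 Cd209a UMIs.

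Genes the rule did not read matched the label for most members. Cd74 was at 7756 CPM in B12+Butyrate, 6950 in B12, 7417 in Butyrate and 7095 in Control, against 622, 354, 830 and 596 CPM in all other kept cells of those libraries. Batf3, a transcription factor needed by cDC1, was at 148, 158, 154 and 158 CPM in the members, against 4.12 to 5.57 CPM in all other kept cells. Zbtb46 was at 140, 91.0, 130 and 108 CPM in the members, against 1.99 to 4.28 CPM in all other kept cells. All 4 libraries therefore carried the dendritic cell genes well above the surrounding marrow. Cd74 did not set the members apart from cells at the edge of the rule. It was at 7451 CPM in the 432 cells without a Flt3 UMI and 9427 CPM in the 34 cells with 2 Cd209a UMIs. Batf3 was at 90.5 and 89.6 CPM in those sets.

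The 20 genes with the highest mean fold over all other kept cells, among those at 100 CPM or more in every library, were led by Ifi205, an interferon-inducible gene of cDC1, which was 23.6-fold higher. Ckb, a creatine kinase, was 13.7-fold higher, Zfp366, the zinc-finger factor DC-SCRIPT, 13.3-fold, Cdk14 13.1-fold, Cd74 12.5-fold, Shtn1 11.1-fold, Batf3 11.1-fold, Cst3, the protease inhibitor cystatin C, 10.8-fold, and Clec9a, the receptor by which cDC1 sense dead cells, 10.4-fold. Ciita was 9.48-fold higher and H2-DMb1, a class II peptide-loading chain, 9.44-fold. The list also held Rnf150, Aif1, Ust, Srgap3, Rab7b, Naaa, Dpp4, Slamf7 and Tbc1d9. Cd74, Ciita and H2-DMb1 belong to the pathway of the class II genes on which the cells were selected.

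The 2 most similar sets of cells were the 453 class II cells with at least 2 Cd209a UMIs and the 439 cells with at least 3 Siglech UMIs. Ifi205 was at 346 to 387 CPM in the members, 41.0 to 66.4 CPM in the Cd209a cells and 0.729 to 3.31 CPM in the Siglech cells. Id2, an inhibitor of E-protein transcription factors, was at 840 to 930 CPM in the members, 117 to 255 CPM in the Cd209a cells and 37.9 to 58.8 CPM in the Siglech cells. Irf8 was at 1068 to 1334 CPM in the members, 108 to 249 CPM in the Cd209a cells and 1765 to 2327 CPM in the Siglech cells. Ciita did not follow this order, with 238 to 286 CPM in the members, 289 to 333 CPM in the Cd209a cells and 8.65 to 23.3 CPM in the Siglech cells. Tcf4, the transcription factor of plasmacytoid dendritic cells, was at 181 to 247 CPM in the members, 198 to 303 CPM in the Cd209a cells and 2728 to 4319 CPM in the Siglech cells. The members thus stood above both neighbours in Ifi205 and Id2, between them in Irf8 and level with the Cd209a cells in Tcf4.

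The members divided into 8 clusters, numbered by size, and the clusters were formed from the genes named for them, so these levels are a description. Cluster 6, with 59 cells, was cDC1-like: Xcr1, the chemokine receptor of cDC1, was at 410 CPM and had a UMI in 55 of the 59 cells, Cadm1, an adhesion molecule, was at 832 CPM, Clec9a at 515 CPM and Tlr3, a receptor for double-stranded RNA, at 295 CPM. Of the 15 cDC1 markers, 12 stood more than 2-fold above the level of all members there. Sirpa and Clec10a, of cDC2, had no UMI in this cluster. Cluster 7, with 54 cells, was mature migratory DC-like, with 17 of 20 markers more than 2-fold up: Fscn1 was at 706 CPM, Ccr7 at 252 CPM, Relb, an NF-kB subunit, at 557 CPM and Ccl5, a chemokine, at 2117 CPM. Xcr1 had no UMI in its 54 cells, which allows a share of up to 5.56% of cells with a UMI. Irf8 was at 75.3 CPM there, against 1937 CPM in cluster 6.

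In clusters 1 and 2 none of the 15 cDC1, 18 cDC2 or 20 mature markers was more than 2-fold above all members, and they were left without a cell type name. Cluster 1, with 138 cells, had Irf8 at 1753 CPM, Id2 at 1387 CPM, Batf3 at 220 CPM and Clec9a at 208 CPM, with Xcr1 at 44.1 CPM and Cadm1 at 14.7 CPM. These are the transcription factors of cDC1, and Xcr1 and Cadm1 were far below their levels in cluster 6. Cluster 2, with 92 cells and a median of 22752 UMIs, was led by genes of dividing cells. The histone genes H3c3, at 507 CPM, and H1f5, at 950 CPM, ranked first and second by fold, and Nusap1, Ube2c, Kif11, Birc5 and Top2a, the DNA-untangling enzyme of dividing cells, at 935 CPM, were also among its first 10. Mki67, a gene of cycling cells, was at 752 CPM. Its Irf8 was at 1525 CPM and its Clec9a at 143 CPM. Kit, the stem cell factor receptor on which the sorted mixture was enriched, had a UMI in 83.3% of cluster 1, 84.8% of cluster 2, 83.1% of cluster 6 and 81.2% of cluster 4, but in 2.35% of cluster 3 and 3.03% of cluster 8. In kept cells with neutrophil genes, at median depths of 15613 to 16884 UMIs, Kit had a UMI in 32.3% to 38.2% of cells.

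Cluster 5, with 62 cells, carried cDC2 genes, with Sirpa at 224 CPM, Clec10a, a lectin of cDC2, at 162 CPM, Irf4 at 37.5 CPM, Cd7 at 129 CPM and Zeb2 at 2025 CPM, and 7 of 18 cDC2 markers were more than 2-fold above all members. Its leading genes, however, included the monocyte genes Fn1 at 630 CPM and F13a1 at 970 CPM, and it was left unnamed.

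In 118 of the 592 members the data went against the label. Cluster 3, with 85 cells, was led by Apoe at 2499 CPM and Lyz2 at 17803 CPM, with 8 of 9 classical monocyte markers more than 2-fold above all members. Cluster 8, with 33 cells, was led by the complement genes C1qa at 572 CPM and C1qb at 655 CPM, with Mrc1, a gene of macrophages, and 6 of 10 macrophage markers were more than 2-fold up. Of the 18 cDC2 markers, 9 in cluster 3 and 10 in cluster 8 were also more than 2-fold up. Zbtb46 was at 9.85 CPM in cluster 3 and 18.7 CPM in cluster 8, against 282 CPM in cluster 6. Cluster 4, with 69 cells, had Irf8 at 1423 CPM and Zbtb46 at 64.7 CPM but was led by Elane at 1229 CPM, Mpo at 835 CPM and Prtn3 at 1001 CPM, enzymes stored in the primary granules of granulocyte-monocyte progenitors, and it held 6 of the 12 doublet-called members. Elane and Mpo each had a UMI in 24 of those 69 cells. The progenitor markers Cd34, Hlf, Mecom and Myb were also more than 2-fold above all members in cluster 4, and Mki67 had a UMI in 73.9% of its cells. The other 405 members, in clusters 1, 2, 5, 6 and 7, carried Zbtb46 at 78.9 CPM or more.

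**Figure D1:**
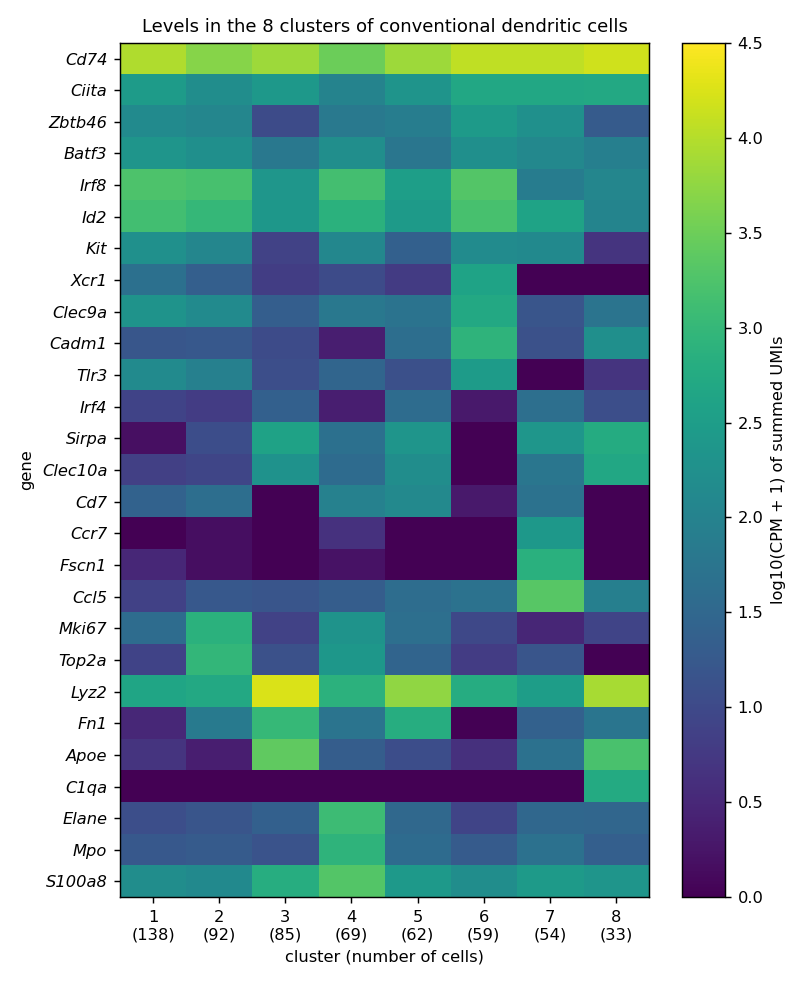
Levels of 27 genes (rows) in the 8 clusters of conventional dendritic cells (columns, with cell numbers), as log10(CPM + 1) of summed UMIs by colour. Xcr1 and Cadm1 are brightest in cluster 6, Fscn1 and Ccl5 in cluster 7, Mki67 and Top2a in cluster 2, Lyz2 and Apoe in clusters 3 and 8, and Elane in cluster 4.

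Whether the treatments went with more or fewer of these cells was read from their share of kept cells. The share was 1.42% in B12+Butyrate (exact 95% binomial interval 1.16 to 1.71), 1.53% in B12 (1.27 to 1.82), 2.56% in Butyrate (2.20 to 2.97) and 2.14% in Control (1.84 to 2.46). Both libraries with B12 lay below both libraries without it, and their intervals did not overlap. B12 over Control gave a ratio of 0.715 (95% interval 0.571 to 0.896) and B12+Butyrate over Butyrate 0.554 (0.436 to 0.702). For butyrate, Butyrate over Control gave 1.20 (0.978 to 1.47) and B12+Butyrate over B12 0.928 (0.718 to 1.20), and both intervals held 1.

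Neutrophil-gene cells moved with the same libraries. Kept cells with Camp and Ngp under 0.5% of UMIs made up 47.8% of B12+Butyrate, 47.3% of B12, 60.0% of Butyrate and 59.3% of Control. Counted among those cells alone, the members were 2.97%, 3.23%, 4.27% and 3.604%. The B12 over Control ratio was then 0.896 (0.717 to 1.12), with 1 inside its interval, and the B12+Butyrate over Butyrate ratio was 0.695 (0.549 to 0.880). A lower share of dendritic cells and a higher share of neutrophils cannot be told apart in the first ratio.

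**Figure D2:**
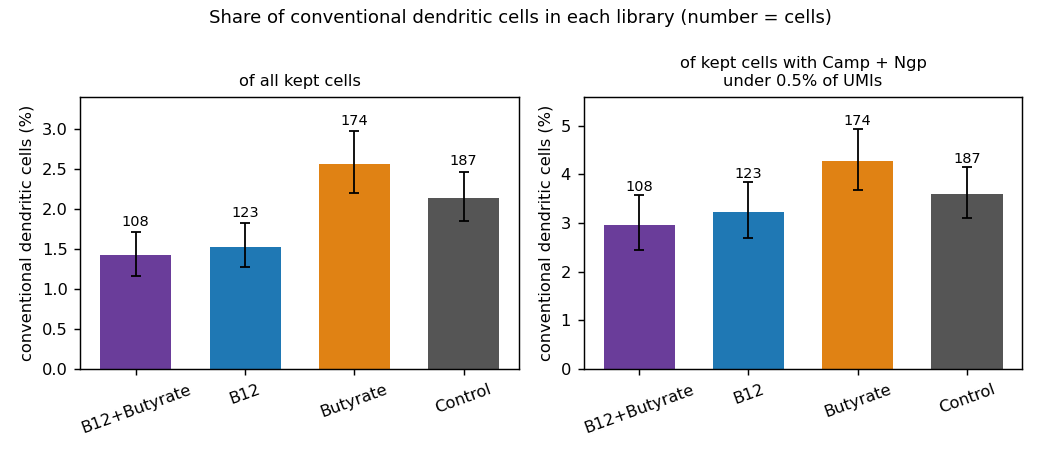
Share of conventional dendritic cells in each library (vertical axis, %), among all kept cells (left) and among kept cells with Camp and Ngp under 0.5% of UMIs (right); bars are 1 library each, lines are exact 95% binomial intervals and numbers above the bars are cells. Left, B12+Butyrate and B12 lie at 1.42% and 1.53%, below Butyrate and Control at 2.56% and 2.14%; right, the gap between B12 at 3.23% and Control at 3.604% is within the intervals.

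The makeup of the members differed most in the cDC1-like cluster. It held 17 of 108 members in B12+Butyrate (15.7%, exact 95% binomial interval 9.45 to 24.0), 3 of 123 in B12 (2.44%, 0.506 to 6.96), 19 of 174 in Butyrate (10.9%, 6.70 to 16.5) and 20 of 187 in Control (10.7%, 6.66 to 16.0). The B12 interval lay apart from that of B12+Butyrate and overlapped those of Butyrate and Control by less than 1 percentage point. Because the clusters were formed from genes that also differed between libraries, these shares describe the clusters and are no test of cell numbers. Clusters 1 and 2, the cells with the same transcription factors but little Xcr1, made up 38.9% of members in B12+Butyrate, 39.8% in B12, 43.7% in Butyrate and 33.7% in Control, with overlapping intervals. The mature migratory DC-like cluster held 6.48%, 7.32%, 9.20% and 11.8% in the same order, also with overlapping intervals. The monocyte- and macrophage-gene clusters 3 and 8 together held 21.3% in B12+Butyrate, 28.5% in B12 (20.7 to 37.3), 14.4% in Butyrate (9.52 to 20.5) and 18.7% in Control (13.4 to 25.1), and the B12 and Butyrate intervals lay apart.

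**Figure D3:**
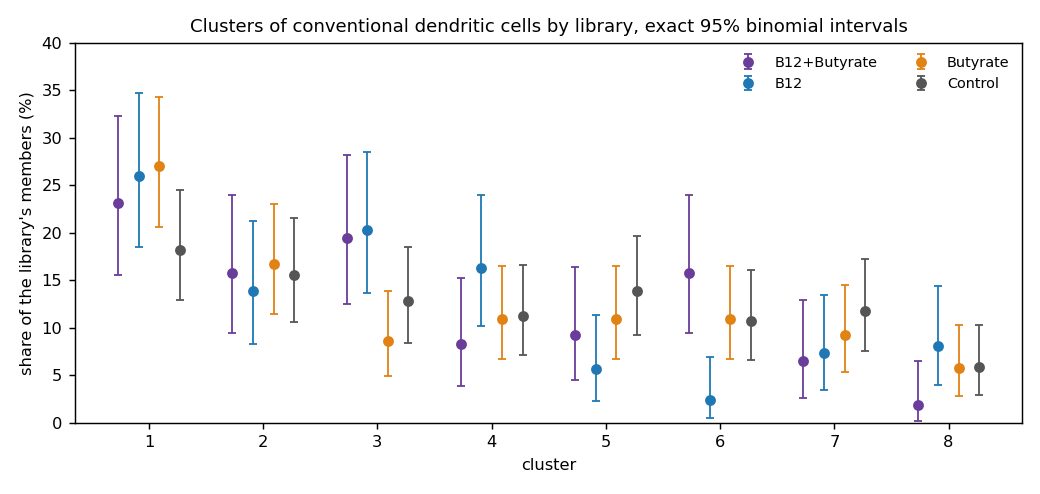
Share of each library's members (vertical axis, %) in clusters 1 to 8 (horizontal axis); points are libraries and lines exact 95% binomial intervals. In cluster 6 the B12 point is at 2.44%, below B12+Butyrate at 15.7%, Butyrate at 10.9% and Control at 10.7%, while in cluster 2 the 4 libraries lie within 13.8% to 16.7%.

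B12 over Control asks what B12 alone went with. Of 3844 genes at 50 CPM or more in either library, 31 were at least 1.5-fold higher with Poisson intervals apart (0.806%) and 49 were as far lower (1.27%); folds are on the log2(CPM + 10) scale. Low in B12 were genes of cDC1. Cadm1 was at 14.96 CPM in B12 (25 UMIs, exact 95% Poisson interval 9.68 to 22.1) and 158 CPM in Control (432 UMIs, 143 to 174), a log2 difference of -2.75. Xcr1 was at 18.6 CPM in B12 and 76.1 CPM in Control, a log2 difference of -1.59. Tlr3 was at 50.3 CPM in B12 and 86.7 CPM in Control (-0.68), Ppt1, a lysosomal thioesterase, at 193 and 355 CPM (-0.85) and Naaa, a lysosomal amidase, at 428 and 695 CPM (-0.69). Of the 10 measured cDC1 markers, 5 were past the fold and lower in B12, 0 were past it and higher, and 9 lay below 0, with a median log2 difference of -0.57, against 0.00 over all 3844 genes. The conventional DC list, which shares Batf3 and Naaa with the cDC1 list, was also low. Of its 15 measured markers 14 lay below 0 (median -0.20), and Cd83, Naaa and Relb were past the fold. Members outside clusters 3, 4 and 8 made up 55.3% in B12 (46.1 to 64.3) and 70.1% in Control (62.9 to 76.5). They made up 70.4% in B12+Butyrate and 74.7% in Butyrate. The part of this makeup in the list differences was not tested.

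In the other libraries Cadm1 was at 175 CPM in B12+Butyrate and 73.5 CPM in Butyrate, and Xcr1 at 91.6 and 55.0 CPM. B12 was the lowest library for both genes, and Butyrate lay below Control in Cadm1 (log2 -1.01). In B12+Butyrate over B12, 89 of 3922 measured genes were past the fold and higher (2.27%) and 65 lower (1.66%). Among them 7 of 11 measured cDC1 markers were higher and 0 lower, with a median of 0.75 against 0.00 over all genes: Cadm1 (log2 2.89), Xcr1 (1.83), Cd36, a scavenger receptor (63.0 CPM in B12+Butyrate, 13.2 in B12, 1.66), Tlr3 (1.25), Ppt1, Wdfy4, which cDC1 need for presenting cell-borne antigen (1237 and 732 CPM, 0.75), and Clec9a (172 and 109 CPM, 0.62). This comparison and B12 over Control share the B12 library and are not independent. B12+Butyrate over Butyrate, which shares no library with B12 over Control, had 35 of 3832 measured genes higher (0.913%) and 25 lower (0.652%). There Cadm1 was 1.15 and Xcr1 0.64 higher on the log2 scale, opposite in sign to B12 over Control. With each library given the same makeup of clusters these were 0.36 and 0.15, and neither was past the fold.

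The cDC1 transcription factors did not follow their surface genes. Irf8 was at 1267 CPM in B12+Butyrate, 1068 in B12, 1334 in Butyrate and 1230 in Control. Id2 was at 930, 840, 890 and 918 CPM and Batf3 at 148, 158, 154 and 158 CPM in that order. None of these was past the fold in any of the 4 comparisons, and the lowest log2 difference among them in B12 over Control was -0.20. Within clusters 1 and 2, Clec9a was at 175 CPM in the 49 B12 cells (exact 95% Poisson interval 145 to 208) and 162 CPM in the 63 Control cells (139 to 188), a difference within counting error. Xcr1 in those clusters was at 22.2 CPM in B12 (12.7 to 36.0) and 55.4 CPM in Control (42.3 to 71.3), with B12+Butyrate at 19.97 and Butyrate at 26.8 CPM. There the Control library was the high one, and B12 was level with both butyrate libraries.

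Counted as cells, Xcr1 had a UMI in 25.0% of members in B12+Butyrate, 10.6% in B12 (13 of 123 cells, exact 95% binomial interval 5.75 to 17.4), 19.5% in Butyrate and 22.5% in Control (42 of 187, 16.7 to 29.1). After each cell was thinned to 5000 UMIs, leaving out 2, 9, 10 and 7 shallower cells, the shares were 17.0%, 7.02%, 13.4% and 16.1%. In kept cells with neutrophil genes, which should lack Xcr1, 0.1% to 0.6% had a UMI at median depths of 15613 to 16884 UMIs. The B12 library was the lowest on each of these counts of Xcr1, and every library lay above the neutrophil level. Clec9a, Tlr3 and Batf3 counted this way were close between B12 and Control. Clec9a had a UMI in 48.0% of members in B12 and 49.7% in Control. Tlr3 had one in 30.9% and 31.6%, and Batf3 in 67.5% and 70.6%. After thinning the 3 genes were at 35.1% and 33.3%, 18.4% and 18.3%, and 48.2% and 46.7%. In B12+Butyrate and Butyrate, Clec9a had a UMI in 60.2% and 62.1% of members, Tlr3 in 46.3% and 43.7% and Batf3 in 75.0% and 66.1%. After thinning these were 40.6% and 43.9%, 29.2% and 26.8%, and 45.3% and 45.7%. Clec9a and Tlr3 by cells were thus higher in both libraries with butyrate. Their intervals overlapped in both butyrate comparisons. Cadm1 had a UMI in 13.9% of members in B12+Butyrate (15 of 108 cells, 7.99 to 21.9) and 9.76% in B12 (12 of 123, 5.14 to 16.4). It had a UMI in 13.2% in Butyrate and 14.97% in Control (10.2 to 20.9). These intervals overlapped, so Cadm1 differed far less by cells than by level. After thinning its shares were 10.4%, 4.39%, 9.15% and 13.9% in the order B12+Butyrate, B12, Butyrate and Control, lowest in B12.

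The differences in cDC1 genes were smaller once the makeup of clusters was evened out. Cluster 6 was formed from such genes, so that setting takes out part of their difference by construction and is no test. With each library given the same makeup, Cadm1 was still 1.64 lower in B12 than in Control on the log2 scale and Xcr1 1.03 lower, both past the fold. Tlr3 (-0.51), Ppt1 (-0.14), Naaa (-0.30) and Ccser1, a gene of cluster 6 (65.8 CPM in B12, 207 CPM in Control, log2 -1.52), which was then -0.52, were no longer past it. In B12+Butyrate over B12 the same setting left Cadm1 at 1.21, Xcr1 at 0.83 and Tlr3 at 0.74, past the fold, while Cd36 (0.67), Wdfy4 (0.29), Clec9a (0.14), Ppt1 (-0.19) and Ccser1 (0.46) were not past it. Clec9a there was also under the fold with doublet-called barcodes removed (0.58) and without cluster 4 (0.55). The B12 values there weight up the 3 cells of its cDC1-like cluster.

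**Figure D4:**
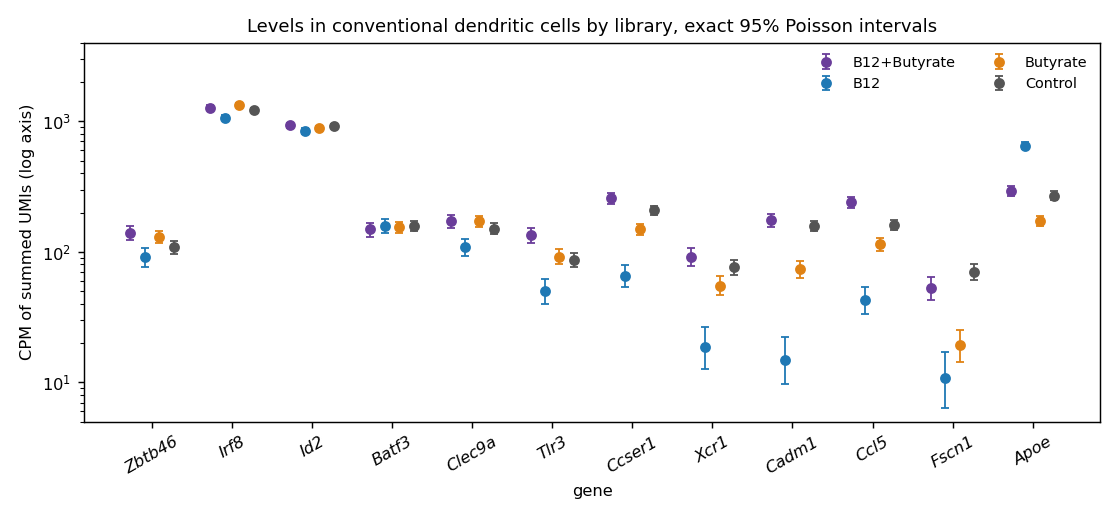
Levels of 12 genes (horizontal axis) in conventional dendritic cells of each library, in CPM of summed UMIs on a log axis, with exact 95% Poisson intervals. The B12 points for Xcr1 and Cadm1 (18.6 and 14.96 CPM) lie below the other 3 libraries, while Irf8, Id2 and Batf3 lie close together.

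Genes of the mature migratory state were also low in B12, although 9 of its members lay in that cluster. Ccl5, a chemokine, was at 42.5 CPM in B12 and 161 CPM in Control (log2 -1.70), and Fscn1 at 10.8 and 70.2 CPM (-1.95). Of 8 measured markers of that state, 4 were past the fold and lower (Fscn1, Cd83, Relb and Tmem123), against 1.27% of all genes. Past the fold and higher were 0, and the median was -0.61. With the same makeup of clusters Fscn1 was -1.67 and Ccl5 -1.78, past the fold, while Cd83 (-0.39), Relb (-0.45) and Tmem123 (-0.51) were not. Butyrate also had less Fscn1 than Control, at 19.2 CPM (-1.46). In B12+Butyrate Fscn1 was at 52.7 CPM and Ccl5 at 239 CPM, higher than in B12 and in Butyrate by log2 differences of 1.59 and 1.10 for Fscn1 and 2.24 and 1.01 for Ccl5. Without its highest cell in each library, Fscn1 was 1.47 and 1.86 in those comparisons and not past the fold in either. Ccl5 had a UMI in 7.41% of members in B12+Butyrate, 14.6% in B12, 9.77% in Butyrate and 11.8% in Control, so its order by cells was not its order by level. Ccr7 itself was at 15.5 CPM in B12+Butyrate, 5.98 in B12, 9.80 in Butyrate and 24.5 in Control and was under the level for a comparison.

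Genes higher in B12 than in Control included Apoe, a macrophage marker. Apoe, which carries lipids, was at 648 CPM in B12 and 270 CPM in Control (log2 1.23). Mx2, an interferon-induced gene, was at 74.2 and 25.2 CPM (1.26), Tnf at 98.7 and 39.5 CPM (1.14) and Adgrl3 at 50.3 and 17.6 CPM (1.13). The highest cluster for Apoe and Mx2 was cluster 3 and for Tnf and Adgrl3 cluster 8, both against the label. Without clusters 3 and 8, Apoe was 0.68 and Adgrl3 1.04 on the log2 scale and neither was past the fold with intervals apart, while Mx2 (1.32), Tnf (1.03), Cadm1 (-2.85) and Xcr1 (-1.57) were. Clec10a was past the fold with all clusters, at 86.8 CPM in B12 and 53.8 CPM in Control (0.60). It was highest in cluster 8, at 490 CPM, and without clusters 3 and 8 it was 0.24 and not past the fold. Chil3, a neutrophil and monocyte gene, was lower in B12, at 14.4 and 75.0 CPM (-1.80). Kept cells with neutrophil genes held Chil3 at 5694 CPM, and without cluster 4 it was -1.02 and not past the fold. Of 5 measured granulocyte-monocyte progenitor markers, 4 were past the fold and higher in B12 than in Control, against 0.806% of all genes: Mpo (0.80), Prtn3 (0.89), Ctsg (1.66) and Ms4a3 (1.28). A single B12 cell held 62.2% of the Mpo UMIs, 58.4% of Prtn3 and 71.4% of Ctsg. With doublet-called barcodes removed all 4 were lower in B12, with Mpo at -2.02 and Prtn3 at -0.90, past the fold, and Ctsg at -1.04 and Ms4a3 at -0.97, not past it. Without cluster 4 they were -1.08, -0.48, -1.04 and -0.43 in the order Mpo, Prtn3, Ctsg and Ms4a3, none past the fold, so their direction in B12 over Control rested on those cells.

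Butyrate over Control asks what butyrate alone went with. Of 3799 measured genes, 24 were past the fold and higher (0.632%) and 52 lower (1.37%). Genes of primary granules were among the lower ones, with 4 of 4 measured granulocyte-monocyte progenitor markers past the fold. Elane, neutrophil elastase, was at 22.99 CPM in Butyrate (61 UMIs) and 372 CPM in Control (1016 UMIs), a log2 difference of -3.53. Prtn3, proteinase 3, was at 53.5 and 284 CPM (-2.21), S100a8, a calcium-binding alarm protein, at 245 and 887 CPM (-1.82), Ifitm1 at 22.6 and 99.1 CPM (-1.74) and Ccl4, a chemokine, at 30.9 and 159 CPM (-2.05).

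The same genes were low in B12+Butyrate over B12, a comparison with no library in common. Elane was at 1.72 CPM in B12+Butyrate (3 UMIs, exact 95% Poisson interval 0.354 to 5.02) and 497 CPM in B12 (831 UMIs, 464 to 532), Mpo at 2.29 and 367 CPM, Prtn3 at 36.6 and 536 CPM (-3.55), S100a8 at 151 and 727 CPM (-2.20), Ifitm1 at 12.6 and 77.8 CPM (-1.96) and Ccl4 at 91.0 and 294 CPM (-1.59). In all, 20 genes were lower past the fold in both comparisons, which is 38.5% of the 52 lower genes of the first and 30.8% of the 65 of the second, and 3 were higher in both (12.5% of 24 and 3.37% of 89). Those lower in both also included Ctsg, Mpo, Serpinb1a, S100a9 and Wfdc17, of which Wfdc17 alone stayed past the fold in both under each setting described next. Cadm1 and Fscn1 were among the 4 genes lower in Butyrate over Control and higher in B12+Butyrate over B12.

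Much of the granule RNA came from few cells. A single cell held 68.4% of the Elane UMIs in B12 (568 of 831) and 65.6% in Control (667 of 1016), and cluster 4 held 97.8% and 91.6% of them. In the butyrate libraries Elane had 3 UMIs in B12+Butyrate, none in cluster 4, and 61 in Butyrate, with 60.7% in a single cell. Prtn3 was more spread: its highest cell held 17.2% of the UMIs in B12+Butyrate, 58.4% in B12, 22.5% in Butyrate and 35.2% in Control, and cluster 4 held 7.81%, 91.1%, 52.1% and 71.9%. For S100a8 the highest cell held 10 of 263 UMIs in B12+Butyrate, 57.4% in B12, 47.5% in Butyrate and 29.1% in Control. Cluster 4 itself made up 8.33% of members in B12+Butyrate, 16.3% in B12, 10.9% in Butyrate and 11.2% in Control, with overlapping intervals. Without cluster 4, Elane was -1.33 in Butyrate over Control and -1.06 in B12+Butyrate over B12, not past the fold in either, and S100a8 in Butyrate over Control was 0.09, the other way round. Mpo (-1.12 and -1.10), Ctsg (-1.04 and -0.26) and Serpinb1a (-1.21 and -1.03) were past it in neither comparison, S100a9 in Butyrate over Control was 0.17, and Ifitm1 in B12+Butyrate over B12 was -1.49 and not past it. A gene under 50 CPM in both libraries is not counted as past the fold, whatever its difference. Prtn3 without cluster 4 was -1.40 and -0.67 and Ccl4 -2.31 and -1.69, all past the fold. With doublet-called barcodes removed, 6 genes in B12+Butyrate over B12 were no longer past it: Elane (-1.14), Mpo (-1.30), Ctsg (-1.01), Serpinb1a (-1.04), S100a8 (-0.50) and S100a9 (-0.51). In Butyrate over Control that setting left Ctsg at -1.02 and S100a9 at -0.57, not past it, and S100a8 at -0.80, past it. Prtn3 stayed past the fold in both comparisons, at -1.69 and -0.92. Without each gene's highest cell, Elane was -2.85 and -3.91, past the fold, while S100a9 (-0.57) and Serpinb1a (-1.33) in B12+Butyrate over B12 were not. In kept cells with at least 100 UMIs of Elane, Mpo and Prtn3 together, Elane was at 7489 CPM, and free RNA of such cells was not tested as a source.

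Ccl4 and Wfdc17 thus differed in both butyrate comparisons with and without cluster 4, and with doublet-called barcodes removed. Ccl4 had a UMI in 19.4% of members in B12+Butyrate, 43.1% in B12, 14.4% in Butyrate and 31.0% in Control, and its highest single cell held 22.0%, 12.2%, 10.98% and 7.59% of its UMIs. Wfdc17, a secreted protein of myeloid cells, was at 210 CPM in B12+Butyrate, 397 in B12, 173 in Butyrate and 349 in Control. Both butyrate libraries lay below both libraries without butyrate for each of these genes.

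The 3 genes higher in both butyrate comparisons were Tnni2, mt-Nd3 and Srgap3. Tnni2, a troponin subunit, was at 67.6 CPM in B12+Butyrate, 34.1 in B12, 72.0 in Butyrate and 32.6 in Control, with log2 differences of 0.81 and 0.95. It had a UMI in 42.6% of members in B12+Butyrate, 34.1% in B12, 44.8% in Butyrate and 29.9% in Control. Srgap3 was at 305, 200, 318 and 194 CPM in the same order (0.59 and 0.69). The mitochondrial gene mt-Nd3 was at 240, 144, 287 and 174 CPM (0.70 and 0.69). The median member had 1.77%, 1.56%, 2.06% and 1.65% mitochondrial UMIs in the same order, and the median kept cell 1.21%, 1.06%, 1.85% and 1.46%. Both medians were thus higher with butyrate in each comparison, and their part in mt-Nd3 was not tested. Tnni2 alone of the 3 stayed past the fold in both comparisons under each setting that left out cells or evened out the clusters. Srgap3 in B12+Butyrate over B12 was 0.53 with doublet-called barcodes removed, 0.56 without clusters 3 and 8, 0.45 without cluster 4 and 0.31 with the same makeup of clusters, past the fold in none of these. With the same makeup mt-Nd3 was 0.58 in Butyrate over Control and not past it. Past the fold in Butyrate over Control and not in B12+Butyrate over B12, a difference that was not tested, were the heat-shock gene Hsph1 (192 CPM in Butyrate and 84.9 in Control, 1.09) and its partner Bag3 (69.3 and 29.3 CPM, 1.01), Pde7b, 1700001K19Rik, and Gpr183, an oxysterol receptor that positions dendritic cells (197 and 127 CPM, 0.60).

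**Figure D5:**
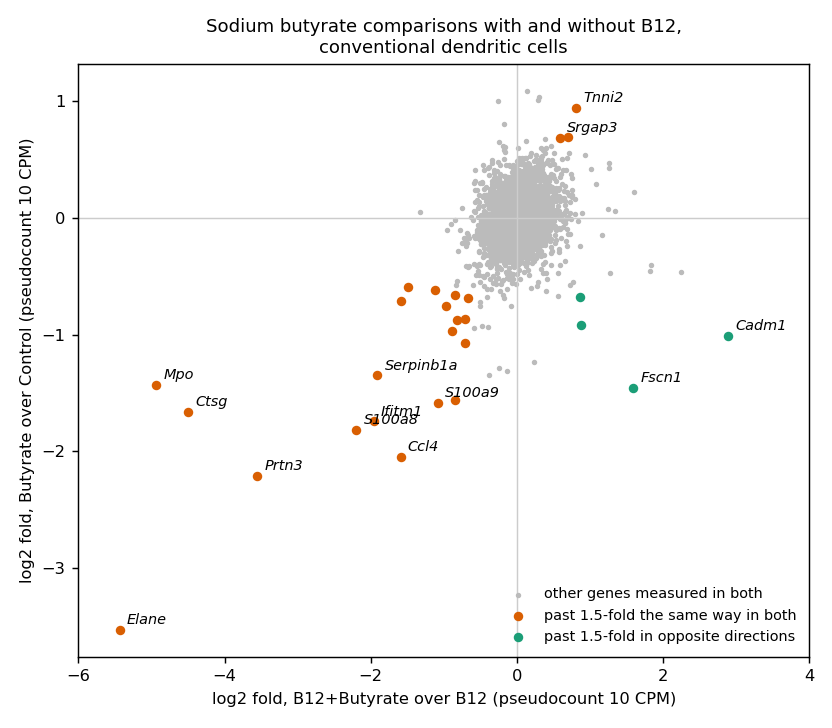
Log2 fold of each gene measured in both comparisons in conventional dendritic cells, B12+Butyrate over B12 on the horizontal axis and Butyrate over Control on the vertical axis, each on the log2(CPM + 10) scale. Elane lies farthest to the lower left at -5.44 and -3.53, and Cadm1 lies at 2.89 and -1.01.

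With butyrate present in both libraries, B12+Butyrate over Butyrate asks what adding B12 went with. The genes past the fold and higher were led by Ccl4 (91.0 CPM in B12+Butyrate and 30.9 in Butyrate, log2 1.30), Cadm1 (1.15), Gm56663 (66.4 and 26.0 CPM, 1.09), Hpgd, a prostaglandin-degrading enzyme (68.1 and 33.5 CPM, 0.84), and Ipcef1 (120 and 64.1 CPM, 0.81). Those lower were led by Mpo (2.29 and 70.5 CPM, -2.71), Cd83, a maturation marker (44.1 and 91.6 CPM, -0.91), 1700001K19Rik (-0.85), Hsph1 (105 and 192 CPM, -0.82) and Dhx40 (-0.81). Hpgd (0.27), Ipcef1 (0.57) and Dhx40 (-0.23) were not past the fold with the same makeup of clusters. Ccl4 (1.28), Hsph1 (-0.92) and 1700001K19Rik (-0.86) stayed past it. Hpgd was highest in cluster 3, and without clusters 3 and 8 it was 1.35 and not past the fold. Across both B12 comparisons, which share no library, 4 genes were higher in both (12.9% of 31 and 11.4% of 35): Ccl4, Apoe, Sirpb1c and Gm56663. A single gene, Cd83, was lower in both, at 44.1 CPM in B12+Butyrate, 44.3 in B12, 91.6 in Butyrate and 76.8 in Control. The 2 libraries with B12 were thus level with each other in Cd83 and below the 2 without. Cd83 was highest in the mature migratory DC-like cluster, at 447 CPM, whose share was also lower in the libraries with B12, at 6.48%, 7.32%, 9.20% and 11.8% in the same order, with overlapping intervals. With the same makeup of clusters Cd83 was -1.11 in B12+Butyrate over Butyrate, past the fold, and -0.39 in B12 over Control, not past it. Apoe, Sirpb1c and Gm56663 had their highest level in cluster 3, and without clusters 3 and 8 they were 0.17, -0.12 and 0.07 in B12+Butyrate over Butyrate, none past the fold.

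Of the cDC2 markers, 1 of 13 was past the fold in B12 over Control (Clec10a, higher), 4 of 13 in Butyrate over Control, 2 of 12 in B12+Butyrate over B12 and 0 of 12 in B12+Butyrate over Butyrate. In Butyrate over Control the 4 were lower, against 1.37% of all genes: Cd7 (39.6 CPM in Butyrate and 65.5 in Control), Tmem176a (117 and 199 CPM), Tmem176b (151 and 239 CPM) and Zeb2 (587 and 903 CPM, log2 -0.61). In B12+Butyrate over B12, Sirpa, an inhibitory receptor (75.0 CPM in B12+Butyrate and 118 in B12, -0.59), and Itgam, an integrin chain (53.8 and 104 CPM, -0.84), were lower, against 1.66% of all genes. Monocyte genes moved with them, and the cDC2 and classical monocyte lists share Ccr2. The measured classical monocyte markers lay below 0 in 7 of 7 cases in Butyrate over Control (median log2 -0.40) and in 6 of 6 in B12+Butyrate over B12 (-0.31); their part in the cDC2 counts was not tested. Sirpa was highest in cluster 8, at 595 CPM, and Itgam in cluster 3, at 261 CPM, both against the label. With the same makeup of clusters Itgam (-0.80) was past the fold, while Sirpa (-0.13), Cd7 (-0.48), Tmem176a (-0.45), Tmem176b (-0.42) and Zeb2 (-0.30) were not. Irf4 was at 10.9, 10.8, 12.4 and 11.3 CPM in B12+Butyrate, B12, Butyrate and Control, under the level for a comparison.

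Class II presentation genes were close to level. Of 13 measured genes of class II presentation, which include the rule genes, 0 were past the fold in B12 over Control (median log2 -0.07), and in the other comparisons Ifi30, a lysosomal thiol reductase, was lower in Butyrate over Control (526 and 846 CPM, -0.67) and Lgmn, a lysosomal protease, lower in B12+Butyrate over B12 (41.2 and 72.4 CPM). Ciita was at 286 CPM in B12+Butyrate, 238 in B12, 247 in Butyrate and 260 in Control. H2-DMb1, whose upstream sequence is shown above, was at 421, 383, 377 and 400 CPM. For class I presentation, H2-Q7 and Nlrc5, a coactivator of class I genes, were lower in B12 over Control, 2 of 15 measured genes against 1.27% of all genes. Both were higher in B12+Butyrate over B12, 2 of 16 against 2.27%. Of the measured class I genes, 12 of 15 lay below 0 in the first comparison (median log2 -0.12) and 12 of 16 above 0 in the second (0.15). These comparisons share the B12 library. In Butyrate over Control 13 of 15 lay below 0 (-0.13), and in B12+Butyrate over Butyrate 10 of 16 lay above 0 (0.05).

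In the pathway lists as a whole, calls were more frequent than over all genes. Over 15 lists, the medians ran from -0.18 to 0.30 in B12 over Control, from -0.13 to 0.19 in Butyrate over Control, from -0.42 to 0.49 in B12+Butyrate over B12 and from -0.15 to 0.13 in B12+Butyrate over Butyrate. With each gene counted once, 13 of 190 measured list genes were higher and 8 lower in B12+Butyrate over B12 (11.1%, against 3.93% of all genes), and 6 of 186 were higher and 8 lower in B12 over Control (7.53%, against 2.08%). The share was 3.78% in Butyrate over Control, against 2.00%, and 4.81% in B12+Butyrate over Butyrate, against 1.57%. The lists hold some of the cDC1 genes given above, such as Xcr1, Cd36, Clec9a and Tlr3. They were also chosen with earlier results of these data known, so the higher share of calls is a description and no test. Among immediate early and heat-shock genes, 1 of 24 was past the fold and higher in Butyrate over Control (Hsph1), against 0.632% of all genes. In B12 over Control 1 of 24 was (Hspa1b, 1193 CPM in B12 and 770 CPM in Control, 0.63), against 0.806%. The median of that list was 0.19 in Butyrate over Control, with 23 of 24 genes above 0, and 0.22 in B12 over Control, with 22 of 24; both rest on the same Control library. The interferon response list had 1 of 18 genes higher in Butyrate over Control and 2 of 19 higher in B12 over Control, against 0.632% and 0.806% of all genes. Ifi27l2a was in both, at 420 CPM in B12+Butyrate, 499 in B12, 456 in Butyrate and 286 in Control. Ifit2, an interferon-induced gene, was at 30.3, 74.2, 17.3 and 32.2 CPM, highest in B12.

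Cell-cycle genes did not separate the libraries. None of 12 or 13 measured S-phase genes was past the fold in any comparison. Of 15 or 16 measured G2/M genes Ube2c and Cenpf alone were, both lower in B12+Butyrate over B12 (120 and 233 CPM, and 57.8 and 104 CPM). There they were 2 of 15, against 1.66% of all genes. Mki67 was at 236 CPM in B12+Butyrate, 212 in B12, 225 in Butyrate and 236 in Control. Few genes that bear on the treatments reached the level for a comparison. In B12+Butyrate over B12, 9 of 29 genes of B12 uptake, folate and DNA methylation did. Of those 9, Lmbrd1, a lysosomal B12 exporter partner, was the 1 past the fold (60.7 and 36.5 CPM), higher, against 2.27% of all genes. Tet2, heterozygous in every group, was at 168, 171, 154 and 147 CPM in B12+Butyrate, B12, Butyrate and Control. The list of histone deacetylases, which butyrate inhibits, and of butyrate handling had a median log2 difference of 0.49 in B12+Butyrate over B12, the highest of the 15 lists there, from 5 measured genes of which 3 lay above 0; it was 0.14 in Butyrate over Control. Hdac8 was past the fold and higher in B12+Butyrate over B12 (82.4 and 51.5 CPM), 1 of 5 measured genes against 2.27% of all genes. Hdac9 was at 791, 554, 922 and 623 CPM, higher in both butyrate libraries by log2 differences of 0.51 and 0.56, under the fold. Of the receptors that bind butyrate, Ffar2 was at 4.58, 26.3, 10.2 and 14.3 CPM in B12+Butyrate, B12, Butyrate and Control, under the level for a comparison. Ffar3 and Hcar2 had 0 UMIs in the members, where a count of 0 allows up to 3 UMIs per library.

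Monocyte markers were the highest of the markers of other lineages in the members. The classical monocyte list shares Ccr2 with the cDC2 list, and Ccr2 had a UMI in 90.9% to 94.3% of members. The 9 classical monocyte markers summed to 1982 CPM in B12+Butyrate, 2504 in B12, 1913 in Butyrate and 2337 in Control, and the 9 markers of Cd209a monocyte-derived cells, which share some genes with them, to 4477, 4685, 3296 and 4185 CPM. The plasmacytoid DC markers, which include Siglech of the rule, summed to 803, 733, 955 and 861 CPM in the same order. Nonclassical monocyte markers summed to 254 to 273 CPM and NK-cell markers to 70.5 to 109 CPM. The B-cell markers, which include Cd79a and Ebf1 of the rule, summed to 208 to 230 CPM. Some lineages were lower. Summed over 8 T-cell markers the level was 0.598 to 23.8 CPM, over 6 erythroid markers 2.64 to 8.38 CPM and over 6 basophil and mast cell markers 0.573 to 4.19 CPM. The 6 granulocyte-monocyte progenitor markers, all detected in each library, summed to 54.4 CPM in B12+Butyrate, 1805 in B12, 183 in Butyrate and 1000 in Control. The 10 neutrophil markers summed to 512, 1439, 790 and 2294 CPM, and the 10 macrophage markers to 457, 907, 370 and 453 CPM. The neutrophil list holds Camp and Ngp, and the list of Cd209a monocyte-derived cells holds Cd209a, which the rule limited. Those sums are therefore a description. The progenitor and neutrophil sums were lower in both butyrate libraries, as were the genes described for butyrate above, and the classical monocyte sum was lower in both as well. The macrophage sum was highest in B12, as was Apoe; their part in those results was not tested.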

How the data were processed

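Single-cell RNA libraries were made with a droplet 3' kit, per the labels' protocols, from 4 pools of marrow. The values deposited by the authors are unnormalized UMI counts; the file headers name Cell Ranger 7.1.0 and the submitters' processing notes GRCm39. Barcodes were kept from 500 detected genes and 1000 UMIs upward, with mitochondrial UMIs limited to 10%. Doublets were scored and left in. UMIs of members were summed per library and scaled to CPM with exact 95% Poisson intervals; shares have exact binomial intervals, and ratios of shares a normal interval on the log scale. A gene was called past the fold at 50 CPM or more in either library, at least 1.5-fold (pseudocount 10 CPM) and with intervals apart; no p-value was computed. Members were clustered by Leiden (leidenalg 0.10.2; 1000 variable genes, 20 principal components, 15 neighbours, resolution 1). Named genes were the 5 highest and 5 lowest per comparison with a UMI in at least 10% of cells of the higher library, up to 10 shared per direction, the 20 leading genes, list members past the fold and defining markers; Hdac9, Tet2, Ffar2, Ffar3 and Hcar2 were singled out after their values were seen. Members, lists and alternatives were chosen with earlier results of these data known. The steps were tested on simulated data. Free RNA was not subtracted.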

Additional observations from a re-analysis of the deposited data

Results flagged for a closer look

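Each gene below was past the fold in opposite directions in 2 comparisons of the same agent that share no library. None of these differences was tested.

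For butyrate, Cadm1 was 2.89 in B12+Butyrate over B12 and -1.01 in Butyrate over Control on the log2 scale. For B12, given first with butyrate in both libraries and then without, Cadm1 was 1.15 in B12+Butyrate over Butyrate and -2.75 in B12 over Control. Xcr1 was 0.64 in B12+Butyrate over Butyrate and -1.59 in B12 over Control, and Ccser1 was 0.75 and -1.52 in the same comparisons. With the same makeup of clusters, Cadm1, Xcr1 and Ccser1 were 0.36, 0.15 and 0.20 in B12+Butyrate over Butyrate, none past the fold. These genes led the cDC1-like cluster, which was formed from such genes. That setting therefore takes out part of their difference by construction and is no test. Ccl5 was 1.01 in B12+Butyrate over Butyrate and -1.70 in B12 over Control. Mpo was -2.71 in B12+Butyrate over Butyrate and 0.80 in B12 over Control, where a single cell held 62.2% of its UMIs in B12 and 40.6% in Control; in Butyrate a single cell held 63.1%. In B12+Butyrate over Butyrate, Mpo was not past the fold without its highest cell in each library (-1.62), without cluster 4 (-1.06) or with doublet-called barcodes removed (-1.58). In B12 over Control it was 0.16 without the highest cells, not past the fold, and -2.02 with doublet-called barcodes removed, past it the other way, so the opposite calls of Mpo rest on a few cells. Cadm1, Xcr1 and Ccser1 were highest in the cDC1-like cluster, which held 17 cells in B12+Butyrate, 3 in B12, 19 in Butyrate and 20 in Control. Counted as cells, Cadm1 had a UMI in 15 of 108 members in B12+Butyrate, 12 of 123 in B12, 23 of 174 in Butyrate and 28 of 187 in Control. The intervals of these shares overlapped.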

How the results depend on the processing

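Of 40 share ratios under alternatives, 39 moved by less than their interval; B12 over Control was -0.16 on the log2 scale (ratio 0.896) among cells with few neutrophil genes. With Flt3 not required, the mature migratory DC-like share was 1.29% in B12, 1.81% in Butyrate and 3.93% in Control. Without cluster 4, an alternative chosen after seeing the data, 122 genes were past the fold in B12 over Control, against 80. Measured from 20 CPM, the counts were 209 in B12 over Control, 166 in Butyrate over Control, 323 in B12+Butyrate over B12 and 158 in B12+Butyrate over Butyrate, and with no minimum 301, 262, 446 and 249. In B12+Butyrate over Butyrate 91 genes were past the fold with a pseudocount of 1 CPM, and 111 with the mean of each cell's CPM and 111 with the same makeup of clusters, against 60. That makeup gave 40 higher and 39 lower in B12 over Control, 28 and 31 in Butyrate over Control and 148 and 70 in B12+Butyrate over B12. Without cluster 4 Butyrate over Control had 32 higher and 42 lower, and without each gene's highest cell B12+Butyrate over Butyrate had 28 and 28.

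Reversed with Flt3 not required were S100a9 in B12+Butyrate over B12 (0.44) and Mpo in B12+Butyrate over Butyrate (0.91). In Butyrate over Control, S100a9 was 0.045 with Camp and Ngp under 0.1%, and without cluster 4 S100a8 was 0.092 and S100a9 0.17. In B12+Butyrate over Butyrate, Sirpb1c was -0.12 without clusters 3 and 8 and Apoe -0.15 with the same makeup. The histone deacetylase list median in B12+Butyrate over B12 was -0.021 from 20 CPM and -0.16 with no minimum. The causes were not tested. For named genes, 786 values kept their size, 122 moved and 7 reversed. Measuring from 20 CPM or with no minimum cannot change a log2 value, so the 61 kept values of each were fixed in advance. Other genes and comparisons given above are not in these counts. Among them, Mpo, Prtn3, Ctsg and Ms4a3 in B12 over Control reversed with doublet-called barcodes removed and without cluster 4. Ppt1 in B12+Butyrate over B12 was -0.19 with the same makeup of clusters. No paired analysis was possible because each group is 1 library. Few cells, 108 to 187 per library, limit what the shares can show.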
